A study of Rattus norvegicus with 12 samples.

Results

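The RGS genes encode regulators of G protein signalling, and 10 of them (Rgs2, Rgs3, Rgs4, Rgs5, Rgs7, Rgs10, Rgs12, Rgs14, Rgs16 and Rgs19) were followed in rat vascular smooth muscle cells exposed to angiotensin II (Ang II). Each gene was read from the probe set that the platform annotation assigns to that symbol alone, taking the one with the highest mean over 12 arrays where several exist. By this rule 9 of the 10 genes were measured, each by 1 probe set, out of 14506 genes in all. The only probe set for Rgs10 is shared with its neighbour Tial1 and gives no value for either gene.

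The cells were smooth muscle cells of the aorta of Sprague-Dawley rats, labelled as differentiated, grown in medium with 10% fetal bovine serum and then kept without serum for 48 h. Ang II, the vasoconstrictor peptide of the renin-angiotensin system, was given at 100 nM. There were 4 groups of 3 arrays, 1 of untreated cells and the others of cells that had Ang II for 6 h, 12 h or 24 h, and all groups share the serum withdrawal. The study design asks how expression in treated cells changed relative to untreated cells. One part of the labels names other times (1 h, 3 h or 24 h), while titles and design agree on 6, 12 and 24 h, which are used here. Untreated cells held for the same added hours were not analysed here, so Ang II and time in culture cannot be told apart. The labels call the arrays biological replicates without naming separate animals or cultures, so the p-values reflect only how these arrays vary, which may be technical.

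RGS proteins bind the active, GTP-loaded alpha subunit of a heterotrimeric G protein and speed its hydrolysis of GTP, which ends signalling to effectors such as phospholipase C beta. The angiotensin type 1 receptor acts mainly through alpha subunits of the Gq class in vascular smooth muscle, and loss of Rgs2, which prefers Gq, is known to raise blood pressure in mice. The genes fall into subfamilies by sequence. Rgs2, Rgs3, Rgs4, Rgs5 and Rgs16 belong to the R4 group of mostly small proteins, Rgs7 to the R7 group that pairs with G beta 5, Rgs10, Rgs12 and Rgs14 to the R12 group, and Rgs19 to the RZ group.

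The median log2 value per array ranged from 7.22 to 7.32, and correlations across genes were 0.9975 to 0.9984 within a group against 0.9868 to 0.9941 between groups. The SD of the log2 values per array ranged from 2.31 to 2.36. It was lowest in Ang II 24 h replicate 2, an array whose omission changed calls of several RGS genes below. The labelled cell type was checked with fixed marker lists. Averaged over 10 smooth muscle markers, the log2 value was 12.2 to 12.6 in the 4 groups, with Acta2 at 14.3 to 14.5 over the arrays. The 9 endothelial markers averaged 6.33 to 6.41 and the 9 leukocyte markers 6.03 to 6.09. The 6 pericyte markers averaged 10.24 to 10.39 and the 7 fibroblast markers 9.04 to 9.46. The check does not tell smooth muscle cells from pericytes or fibroblasts. Probe sets differ in their response, so these levels are not ranked against each other and a dim probe set does not show absence. In whole-culture RNA, fewer cells expressing a gene and less RNA of it per cell cannot be told apart.

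The promoter sequences of the 3 genes that carry the main time patterns below are shown because Rgs16 and Rgs2 rose together at 6 h while Rgs4 fell. The sequences are from RefSeq, whose table had all 10 genes. Each line is the 250 bases before the annotated start, 5′ to 3′, and capitals mark the sequence TGACG, the core of the cyclic AMP response element, on either strand.
Rgs16, GRCr8 chr13:68437870-68438119, plus strand: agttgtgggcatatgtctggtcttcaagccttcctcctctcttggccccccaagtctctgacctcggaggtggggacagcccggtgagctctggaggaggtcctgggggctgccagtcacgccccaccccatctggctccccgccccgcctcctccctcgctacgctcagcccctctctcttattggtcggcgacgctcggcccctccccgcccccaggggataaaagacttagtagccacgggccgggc
Rgs2, GRCr8 chr13:58352667-58352916, minus strand: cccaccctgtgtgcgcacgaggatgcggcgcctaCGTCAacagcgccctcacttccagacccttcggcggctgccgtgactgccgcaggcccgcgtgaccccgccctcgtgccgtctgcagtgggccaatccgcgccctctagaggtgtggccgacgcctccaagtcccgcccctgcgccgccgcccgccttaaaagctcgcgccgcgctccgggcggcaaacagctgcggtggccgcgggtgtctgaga
Rgs4, GRCr8 chr13:84475885-84476134, minus strand: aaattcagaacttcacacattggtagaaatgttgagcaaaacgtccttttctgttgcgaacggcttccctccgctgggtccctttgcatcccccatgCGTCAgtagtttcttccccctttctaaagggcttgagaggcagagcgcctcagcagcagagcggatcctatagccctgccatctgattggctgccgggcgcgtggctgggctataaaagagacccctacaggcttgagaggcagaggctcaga
The window of Rgs16 lies inside the annotated span of the gene, whereas those of Rgs2 and Rgs4 lie before it. Of the windows not shown, those of Rgs3, Rgs10, Rgs12 and Rgs19 also lie inside. The Rgs2 window was 72.4% G and C with 33 CG dinucleotides, that of Rgs16 66.8% with 14, and that of Rgs4 54.4% with 10, against a median of 51.2% G and C over 33469 rat promoters.

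The core TGACG, which is also part of the full element, was found in 3 of 10 RGS promoters, those of Rgs2 (216 bases before the start), Rgs4 (153 bases) and Rgs3 (29 bases), and in 18.2% of all promoters. The AP-1 sequence TGANTCA was found only in that of Rgs12 (153 bases before the start), among 10, and in 6.34% of all. The matches in Rgs3 and Rgs12 lie inside the annotated spans of these genes. The full element TGACGTCA, the CArG box bound by serum response factor and the EGR sequence GCGTGGGCG were in none of the 10, and in 1.59%, 1.5% and 0.478% of all. The short NFAT core GGAAA was in 4 of the 10 and in 56.9% of all. These matches on either strand describe letters in a window. The Rgs16 window held none of the 6 sequences, so it could share none with the Rgs2 window.

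Among the 9 measured genes Rgs16 and Rgs4 varied most over the 4 groups, with opposite differences from untreated cells at 6 h. Rgs16 rose 2.52-fold at 6 h and was back near its untreated level at 12 and 24 h. Rgs4 fell 2.15-fold at 6 h, came back at 12 h and stood 1.69-fold above untreated cells at 24 h. Rgs2 rose 1.36-fold at 6 h and was below untreated cells at 12 h. Over the 9 measured genes the F test of limma for any difference among the 4 groups passed for 6 (Rgs2, Rgs3, Rgs4, Rgs12, Rgs16 and Rgs19), where 51.5% of all genes passed.

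**Figure D1:**
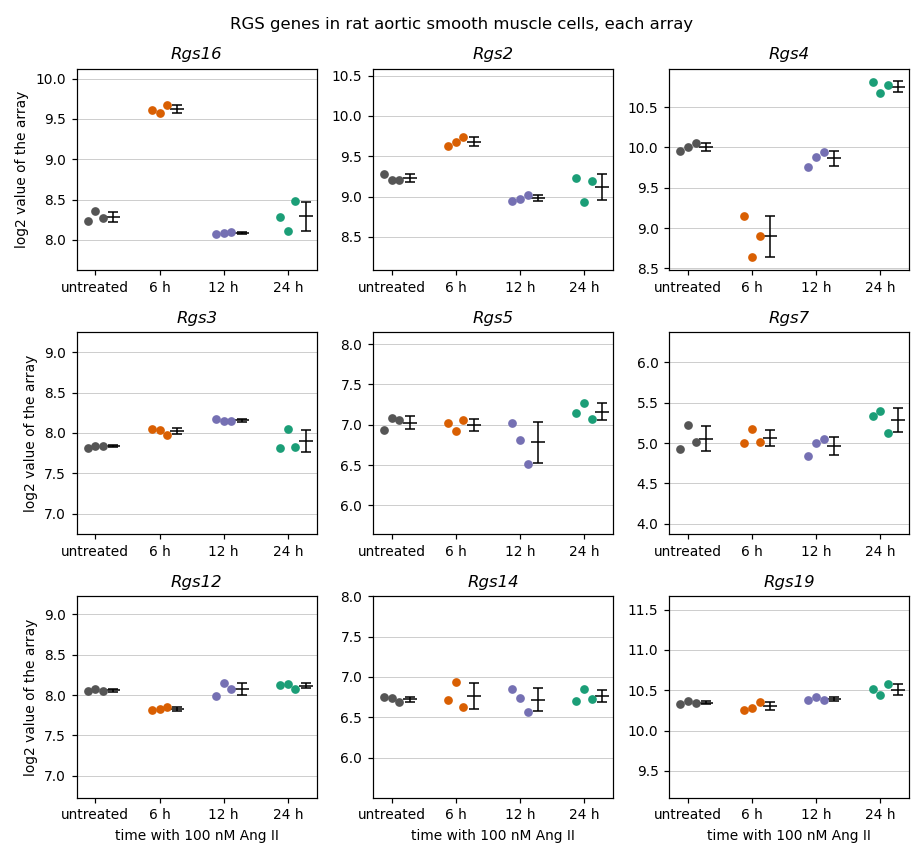
Log2 value of each array (dots) for 9 RGS genes in untreated cells and after 6, 12 and 24 h of 100 nM Ang II, with the mean and SD of each group of 3 beside the dots; each panel spans the same number of log2 units. The 6 h arrays of Rgs16 (9.57 to 9.68) lie above all others, and those of Rgs4 (8.64 to 9.15) below all others.

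Rgs16 encodes a small R4 protein that acts on the Gi and Gq classes. Its log2 values were 8.23, 8.36 and 8.27 in untreated cells and 9.61, 9.57 and 9.68 after 6 h of Ang II. They were 8.07, 8.09 and 8.10 after 12 h and 8.28, 8.11 and 8.48 after 24 h. The 6 h arrays stood wholly above all the others, whereas those of 24 h overlapped with untreated. The log2 difference at 6 h was 1.33 ± 0.08 (SE, n = 3 per group, limma adjusted p = 7.25e-08), which ranked 70 from the top among 14506 genes. Between 6 and 12 h the level fell by 1.53 on the log2 scale (SE 0.08, limma adjusted p = 1.04e-07), rank 18 from the bottom. In order of means, 12 h was lowest, followed by untreated, 24 h and 6 h.

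At 12 h all 3 Rgs16 arrays lay below the untreated ones, with a log2 difference of −0.20 ± 0.08 that did not pass (limma adjusted p = 0.0785). It passed without Ang II 24 h replicate 2 (adjusted p = 0.0265) or without replicate 3 of that group (adjusted p = 0.0202), at the same difference of −0.20. At 24 h the difference from untreated was 0.00 (95% interval −0.16 to 0.17). From 12 to 24 h it was 0.20 ± 0.08 (limma adjusted p = 0.0689), and 0.29 without Ang II 24 h replicate 2 (adjusted p = 0.00884). Untreated, 12 h and 24 h were therefore not separated by the main fit, but some other settings with all arrays called them. Both differences passed with the median level filter (limma adjusted p = 0.0261 and 0.0244) and with the trended, robust variance (0.034 and 0.0298). The 2 groups alone called the first (0.0206), and array weights (0.0286) and quantile normalization (0.0457) the second.

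Rgs2, the family member with the strongest preference for Gq alpha subunits, had a smaller pulse at 6 h. Its log2 values were 9.28, 9.21 and 9.20 in untreated cells, and 9.63, 9.67 and 9.74 at 6 h. At 12 h they were 8.95, 8.97 and 9.02, and at 24 h 9.23, 8.94 and 9.19. Every 6 h array exceeded every untreated one and every 12 h array was below, while 24 h overlapped with both of these groups. The rise at 6 h was 0.45 ± 0.07 (SE, n = 3 per group, limma adjusted p = 0.00027).

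The fall of Rgs2 from 6 to 12 h was 0.70 in size (log2 difference −0.70 ± 0.07, limma adjusted p = 1.91e-05), or 1.62-fold. Against untreated cells the 12 h level was lower by −0.25 ± 0.07 (limma adjusted p = 0.02). That call was lost without untreated replicate 1 (−0.22, adjusted p = 0.076), Ang II 12 h replicate 1 (−0.23, adjusted p = 0.0634) or Ang II 12 h replicate 2 (−0.24, adjusted p = 0.0558). The lowest group of Rgs2 was 12 h and the highest 6 h. The 24 h mean lay between 12 h and untreated and passed against neither, with intervals of −0.02 to 0.29 and −0.26 to 0.04. Ang II 24 h replicate 2 read lower than the other 24 h arrays, and without it Rgs2 rose by 0.23 from 12 to 24 h (adjusted p = 0.00843). That step also passed with quantile normalization (0.17, limma adjusted p = 0.0464). Next to Rgs2 on chromosome 13 lies Uchl5, a deubiquitinase gene, which fell at 6 h (−0.62 ± 0.07, limma adjusted p = 2.38e-05) while Rgs2 rose. Like Rgs2, Uchl5 was lower than untreated at 12 h (−0.32 ± 0.07, limma adjusted p = 0.00568), and neither passed at 24 h.

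Rgs4, a regulator of Gi and Gq signalling, followed the reverse course and then overshot. The untreated log2 values were 9.95, 10.00 and 10.05, and those at 6 h 9.15, 8.64 and 8.90. They were 9.76, 9.89 and 9.94 at 12 h and 10.81, 10.68 and 10.78 at 24 h. No array of one group overlapped with another group, although untreated and 12 h nearly touch. Rgs4 fell at 6 h by 1.10 on the log2 scale (SE 0.10, n = 3 per group, limma adjusted p = 4.4e-06), rank 120 from the bottom of all genes.

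The level of Rgs4 then rose by 0.96 ± 0.10 from 6 to 12 h (limma adjusted p = 3.12e-05) and by 0.89 ± 0.10 from 12 to 24 h (adjusted p = 6.27e-05). These steps ranked 32 and 37 from the top. The 24 h level was 0.76 ± 0.10 above untreated (limma adjusted p = 0.000154). From 6 to 24 h the span was 1.86 ± 0.10, or 3.62-fold (limma adjusted p = 6.47e-08), and 4 genes among 14506 rose more. Only the neighbours 12 h and untreated in the order 6 h, 12 h, untreated, 24 h did not pass (−0.14, 95% interval −0.36 to 0.09, limma adjusted p = 0.396). Spread was widest at 6 h (SD 0.25 against 0.05 in untreated cells).

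Rgs3, an R4 member with long and short forms, was modestly higher at 6 and 12 h. Untreated arrays read 7.82, 7.84 and 7.84 on the log2 scale, 6 h arrays 8.05, 8.04 and 7.98, and 12 h arrays 8.18, 8.15 and 8.14. At 24 h the values were 7.82, 8.05 and 7.83, so that replicates 1 and 3 sat with untreated cells and replicate 2 with the 6 h arrays. The rise was 0.19 ± 0.06 at 6 h (limma adjusted p = 0.0242) and 0.32 ± 0.06 at 12 h (adjusted p = 0.0013). Rgs3 fell by 0.26 on the log2 scale from 12 to 24 h (SE 0.06, limma adjusted p = 0.00639).

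The 6 h rise of Rgs3 did not pass without untreated replicate 1 (0.18, adjusted p = 0.0697), 2 (0.19, 0.0544) or 3 (0.19, 0.057), nor without Ang II 6 h replicate 1 (0.18, 0.076) or 2 (0.18, 0.0656). From 6 to 12 h it gained 0.14 (limma adjusted p = 0.12), and at 24 h it stood 0.06 above untreated (95% interval −0.06 to 0.19). Without Ang II 24 h replicate 2 the gain from 6 to 12 h passed (adjusted p = 0.0193), and the 24 h level was 0.20 below that at 6 h (−0.20, adjusted p = 0.00307) in place of −0.12 (0.116). In the order untreated, 24 h, 6 h, 12 h no pair of neighbours passed in the main fit. The difference between 24 h and 6 h passed with arrays centred on their medians (−0.16, limma adjusted p = 0.0484) or weighted (−0.15, 0.0449).

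Rgs5, which marks pericytes and arterial smooth muscle, did not pass the F test (limma adjusted p = 0.0531). Its log2 values were 6.93, 7.08 and 7.06 in untreated cells, 7.02, 6.92 and 7.06 at 6 h, 7.02, 6.81 and 6.52 at 12 h, and 7.14, 7.27 and 7.07 at 24 h. The 12 h arrays were spread most widely (SD 0.25), from within the untreated range to well below it. The difference from untreated was −0.03 at 6 h (95% interval −0.26 to 0.21), −0.24 at 12 h (−0.48 to −0.01, limma adjusted p = 0.119) and 0.13 at 24 h (−0.10 to 0.37). From 12 to 24 h Rgs5 rose by 0.38 ± 0.11 (limma adjusted p = 0.02), the one neighbouring pair of times that passed.

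That rise of Rgs5 was 0.25 without Ang II 12 h replicate 3 (adjusted p = 0.0581) and 0.32 without Ang II 24 h replicate 2 (adjusted p = 0.0766). It did not pass with the 12 and 24 h groups alone (0.38, 0.0696) or without moderation (0.38, 0.0505). Without Ang II 12 h replicate 1 the 12 h level passed as lower than untreated (−0.36, adjusted p = 0.0149) and than 6 h (−0.34, 0.0213), against −0.22 with all arrays. Without Ang II 12 h replicate 3 the difference from untreated at 12 h was −0.11. Rgs5 adjoins Rgs4 on chromosome 13, with no protein-coding gene of the RefSeq table between them. The neighbours read side by side as −0.03 for Rgs5 and −1.10 for Rgs4 at 6 h, and as 0.13 and 0.76 at 24 h. On its other side lies Nuf2, a kinetochore gene, which was lower at each time (−0.50 ± 0.04, −0.31 ± 0.04 and −0.70 ± 0.04; limma adjusted p = 1.3e-06, 0.000142 and 1.93e-07).

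**Figure D2:**
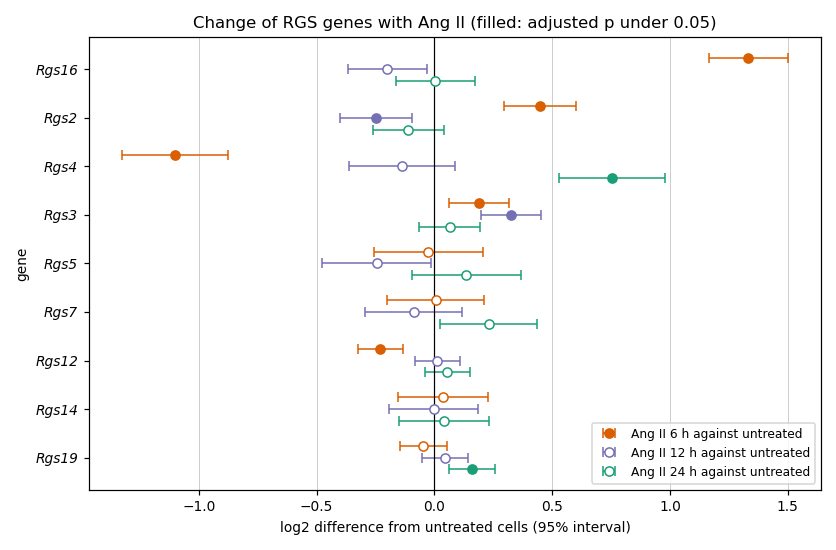
Log2 difference of each RGS gene from untreated cells (horizontal axis) after 6, 12 and 24 h of Ang II, with the 95% interval of the limma fit; filled dots passed at an adjusted p under 0.05. Rgs16 (1.33) and Rgs4 (−1.10) lie farthest from 0 at 6 h, and Rgs4 (0.76) at 24 h.

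Rgs7, the R7 member best known from neurons, had a dim probe set. Its log2 values ran from 4.93 to 5.22 in untreated cells, 5.00 to 5.17 at 6 h, 4.84 to 5.05 at 12 h and 5.13 to 5.40 at 24 h. Its difference from untreated was 0.01 at 6 h, −0.09 at 12 h and 0.23 ± 0.09 at 24 h (limma adjusted p = 0.0864), with overlapping arrays each time. It passed without untreated replicate 2 (0.31, adjusted p = 0.0325) or Ang II 24 h replicate 3 (0.31, 0.034). From 12 to 24 h Rgs7 rose by 0.32 ± 0.09 (limma adjusted p = 0.0257).

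The Rgs7 rise from 12 to 24 h was lost without Ang II 12 h replicate 1 (0.26, adjusted p = 0.086), Ang II 24 h replicate 1 (0.30, 0.0724) or Ang II 24 h replicate 2 (0.26, 0.0966). It was also lost with quantile normalization (0.27, 0.0556), with array weights (0.25, 0.071) and without moderation (0.32, 0.0576). Without the narrowest array of each Ang II group, a setting chosen after seeing the data, it was 0.20 (limma adjusted p = 0.199). Against 6 h the 24 h level differed by 0.22 (limma adjusted p = 0.079), which passed without Ang II 6 h replicate 2 (0.28, 0.0495) or Ang II 24 h replicate 3 (0.30, 0.0273). Its partners read as follows. Gnb5, the gene of G beta 5, was 0.18 ± 0.04 higher at 24 h (limma adjusted p = 0.0104), and Rgs7bp, which anchors R7 proteins at the membrane, was 0.15 lower at 6 h (−0.15 ± 0.05, adjusted p = 0.0347). Gnb5 did not pass at 6 h (−0.04, limma adjusted p = 0.524) or 12 h (0.03, 0.743). Nor did Rgs7bp at 12 h (−0.12, limma adjusted p = 0.113) or 24 h (−0.10, 0.161). Both genes were named as partners of Rgs7 after their values were seen.

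Rgs12, a large scaffold protein that also binds inactive Gi alpha subunits, dipped at 6 h. The untreated log2 values were 8.06, 8.07 and 8.04, and those at 6 h 7.81, 7.83 and 7.85, below every array of the other groups. They were 7.99, 8.14 and 8.07 at 12 h and 8.12, 8.14 and 8.08 at 24 h. Rgs12 fell by 0.23 at 6 h (log2 difference −0.23 ± 0.04, limma adjusted p = 0.00136, 1.17-fold) and rose by 0.24 ± 0.04 from 6 to 12 h (adjusted p = 0.00151). At 12 and 24 h the difference from untreated was 0.01 (95% interval −0.08 to 0.11) and 0.06 (−0.04 to 0.15), so that the 3 upper groups in its order did not pass against their neighbours.

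Rgs14, which like Rgs12 carries a second site for inactive Gi, passed no comparison. All 12 log2 values lay between 6.56 and 6.94, and the 4 means spanned 0.04 (F test of limma, adjusted p = 0.942). The 95% intervals of its differences from untreated were −0.15 to 0.23 at 6 h, −0.19 to 0.19 at 12 h and −0.15 to 0.23 at 24 h.

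Rgs19, which binds Gi alpha subunits and has been linked to vesicle traffic, was slightly higher at 24 h. Untreated arrays read 10.32, 10.37 and 10.35 on the log2 scale, and 24 h arrays 10.51, 10.44 and 10.57, without overlap. The values at 6 h were 10.26, 10.28 and 10.35, and at 12 h 10.38, 10.42 and 10.38. The rise at 24 h was 0.16 ± 0.05 (limma adjusted p = 0.0188, 1.12-fold). The level at 24 h exceeded that at 6 h by 0.21 ± 0.05 (adjusted p = 0.00304). Neighbours in the order 6 h, untreated, 12 h, 24 h did not pass, with differences from untreated of −0.05 at 6 h (95% interval −0.15 to 0.05) and 0.05 at 12 h (−0.05 to 0.14).

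The 24 h rise of Rgs19 did not pass without untreated replicate 1 (0.15, adjusted p = 0.0638), untreated replicate 3 (0.16, 0.0517) or Ang II 24 h replicate 3 (0.13, 0.0757), nor with arrays centred on their medians (0.14, 0.0822) or the 2 groups alone (0.16, 0.0529). From 12 to 24 h it gained 0.12 (adjusted p = 0.081), and 0.15 without Ang II 24 h replicate 2 (0.0399). That gain also passed with the median level filter (limma adjusted p = 0.0303), quantile normalization (0.0241) and the trended, robust variance (0.0378).

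Read by comparison, 3 of the 9 genes rose at 6 h (Rgs2, Rgs3 and Rgs16) and 2 fell (Rgs4 and Rgs12), a share of 55.6% where 35.8% of all genes passed, 18.6% as higher and 17.2% as lower. At 12 h 1 rose (Rgs3) and 1 fell (Rgs2), or 22.2% against 26.6% of all genes, of which 13.3% were higher and as many lower. At 24 h 2 rose (Rgs4 and Rgs19) and none of the 9 fell, or 22.2% against 30.0%, with 15.3% of all genes higher and 14.7% lower. In limma no RGS gene was lower at 24 h at an unadjusted p under 0.05 either. With 9 genes, the shares at 12 and 24 h are near those of all genes. That at 6 h is higher but rests on 5 genes and was not tested against all genes. The shares for the steps between times below rest on similarly few genes and were likewise not tested.

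Only Rgs16 and Rgs4 at 6 h, and Rgs4 at 24 h, passed against untreated cells with at least a 1.5-fold difference, where 6.87%, 3.7% and 3.87% of all genes did so at 6, 12 and 24 h. The arrays of treated and untreated cells did not overlap for 5 RGS genes at 6 h, 5 at 12 h and 3 at 24 h, against 47.2%, 40.8% and 44.8% of all genes. The median size of the log2 difference over the 9 genes was 0.19, 0.14 and 0.11 at the 3 times, and 0.12, 0.10 and 0.13 over all genes. The 3 comparisons share their untreated arrays.

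Between neighbouring times 4 of 9 genes passed in each step. From 6 to 12 h Rgs4 and Rgs12 rose and Rgs2 and Rgs16 fell, 44.4% against 27.0% of all genes (13.1% higher and 13.9% lower). From 12 to 24 h Rgs4, Rgs5 and Rgs7 rose and Rgs3 fell, 44.4% against 27.5% (14.0% higher and 13.5% lower). Over all genes that step had 2028 higher and 1955 lower, and 1247 and 2321 with arrays centred on their medians, under which the 4 RGS calls kept their directions. Between 6 and 24 h 5 passed, with Rgs4, Rgs12 and Rgs19 higher and Rgs2 and Rgs16 lower at 24 h, 55.6% against 39.2% (19.4% higher and 19.8% lower).

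At least a 1.5-fold step was called from 6 to 12 h for 3 RGS genes (Rgs2, Rgs4 and Rgs16; 2.82% of all genes), from 12 to 24 h for Rgs4 (2.43%) and from 6 to 24 h for 2 (Rgs4 and Rgs16; 6.49%). Arrays did not overlap for 6 of the 9 genes in each of these comparisons, against 39.3%, 40.3% and 48.9% of all genes.

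Of 18 other listed genes with an RGS domain, 16 were measured. Of these 2 rose and 1 fell at 6 h, 4 rose and 2 fell at 12 h, and 4 rose and 1 fell at 24 h, where 35.8%, 26.6% and 30.0% of all genes passed. Rgs17, an RZ member like Rgs19, had mean log2 values of 9.77 ± 0.04 (SD, n = 3) in untreated cells, 10.53 ± 0.05 at 6 h, 10.65 ± 0.04 at 12 h and 9.89 ± 0.05 at 24 h. It rose by 0.76 ± 0.05 at 6 h (limma adjusted p = 1.02e-07) and by 0.87 ± 0.05 at 12 h (adjusted p = 6.06e-08). Its level at 24 h was 0.12 above untreated (adjusted p = 0.0626). Rgs8, which adjoins Rgs16 on chromosome 13, was 0.35, 0.43 and 0.56 higher at the 3 times (limma adjusted p = 0.000388, 0.000134 and 1.42e-05), next to 1.33, −0.20 and 0.00 for Rgs16.

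Rgs18, a blood cell member of R4, was 0.40 ± 0.09 higher at 24 h (limma adjusted p = 0.007) at mean log2 values of only 4.55 and 4.95. Arhgef11, whose protein has an RGS-like domain, was lower at 6 h (−0.41 ± 0.04, limma adjusted p = 1.55e-05) and 12 h (−0.25 ± 0.04, 0.00103). Snx14, a sorting nexin with such a domain, fell at 12 h (−0.46 ± 0.08, adjusted p = 0.000687).

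Of 13 alpha subunit genes, 4 rose and 1 fell at 6 h and 1 rose at 12 h. At 24 h 2 rose and 1 fell, and the median log2 differences were 0.04, 0.08 and 0.05. Of all genes 35.8%, 26.6% and 30.0% passed at the 3 times, for this list and the next alike. Gna11, a Gq class subunit, was 0.24 ± 0.04 higher at 6 h (limma adjusted p = 0.000887) and Gna13 0.27 ± 0.06 higher (adjusted p = 0.00328). Gna13 was also 0.18 ± 0.06 higher at 24 h (limma adjusted p = 0.0456). Gnao1, of the Gi class, was lower at 6 h (−0.23 ± 0.06, limma adjusted p = 0.00868) and higher at 24 h (0.40 ± 0.06, 0.00028). Of 13 measured beta and gamma genes 1 rose and 1 fell at 6 h, 2 rose at 12 h, and 3 rose and 2 fell at 24 h. Gnb4 rose by 0.57 ± 0.04 at 6 h and 0.50 ± 0.04 at 12 h (limma adjusted p = 5.68e-07 and 3.11e-06). At 24 h Gnb4 was lower (−0.14 ± 0.04, limma adjusted p = 0.0251). Gng8 fell at 6 h (−0.44 ± 0.06) and rose at 24 h (0.46 ± 0.06, limma adjusted p = 6.34e-05 and 6.89e-05).

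The receptor kinases and arrestins, which uncouple active receptors, are the other arm of desensitisation. Of these 7 genes 3 rose and 1 fell at 6 h and at 12 h, and 2 rose and 2 fell at 24 h. The shares of all genes that passed were 35.8%, 26.6% and 30.0%. Grk5 rose by 0.71 ± 0.06 at 6 h and by 0.78 ± 0.06 at 12 h (limma adjusted p = 1.53e-06 and 1.18e-06). Grk6 rose by 0.83 ± 0.06 at 6 h (adjusted p = 4.51e-07). Smaller differences passed for Grk6 at 12 h (0.24 ± 0.06, limma adjusted p = 0.0101) and Grk5 at 24 h (0.18 ± 0.06, 0.0392). Arrb1, which encodes beta-arrestin 1, was lower at 24 h (−0.37 ± 0.07, limma adjusted p = 0.00189).

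Among other regulators, 3 of 8 rose and 3 fell at 6 h, and 1 rose and 2 fell at 12 h. At 24 h 2 rose and 1 fell, where 35.8%, 26.6% and 30.0% of all genes passed at the 3 times. Ric8a, a chaperone and exchange factor for alpha subunits, rose by 0.50 ± 0.05 at 6 h (limma adjusted p = 4.27e-06). It was also higher at 12 h (0.15 ± 0.05, 0.0386) and 24 h (0.20 ± 0.05, 0.00693). Ppp1r9a, one of the scaffolds called neurabins that bind RGS proteins, fell at 6 h (−0.68 ± 0.11, adjusted p = 0.000484) and at 12 h (−0.50 ± 0.11, 0.00578) and was higher at 24 h (0.35 ± 0.11, 0.0379). Gpsm1, which holds Gi alpha subunits in the inactive state, was lower at 6 h (−0.41 ± 0.06, limma adjusted p = 0.000198), 12 h (−0.29 ± 0.06, 0.00335) and 24 h (−0.39 ± 0.06, 0.000453).

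**Figure D3:**
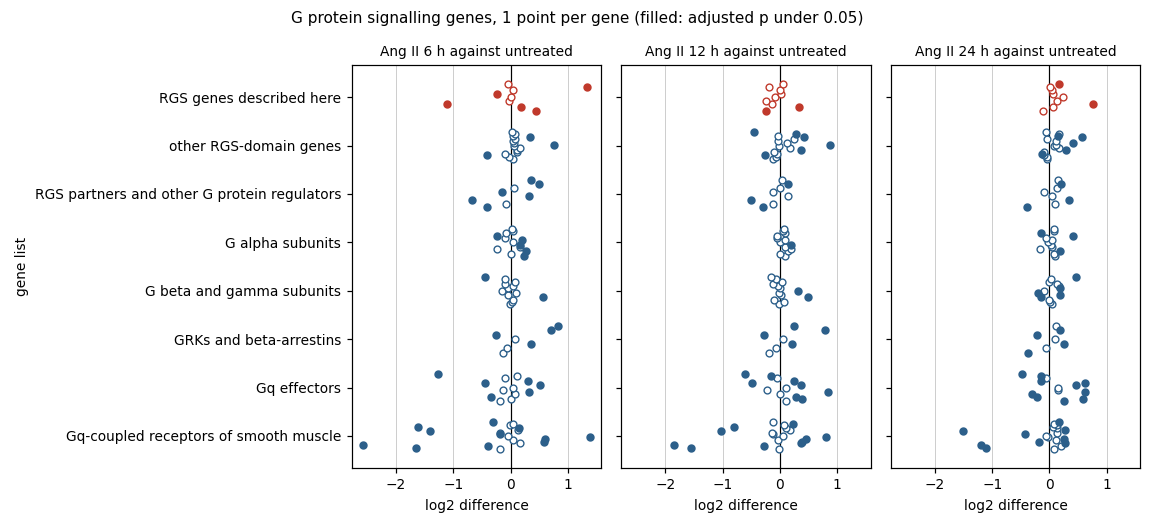
Log2 difference from untreated cells (horizontal axis) for each measured gene of 7 fixed lists of G protein signalling genes (blue) and the 9 RGS genes (red) at 6, 12 and 24 h; filled dots passed at an adjusted p under 0.05. The longest falls are in the receptor list, led by Agtr1a (−2.57 at 6 h), and dots of each list lie on both sides of 0 at 6 h.

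Upstream, 4 of 19 measured receptor genes of the Gq class rose and 7 fell at 6 h. At 12 h 5 rose and 5 fell, and at 24 h 4 rose and 5 fell. The shares of all genes that passed were 35.8%, 26.6% and 30.0%. Agtr1a, the gene of the main Ang II receptor in rat vessels, had mean log2 values of 11.79, 9.22, 9.93 and 10.59 in the 4 groups in order of time. It was lower by −2.57, −1.85 and −1.20 (SE 0.06 each; limma adjusted p = 7.19e-11, 1.55e-09 and 3.92e-08), next to 1.33, −0.20 and 0.00 for Rgs16 and −1.10, −0.14 and 0.76 for Rgs4. Adra1b, an alpha-1 adrenergic receptor gene, was lower at 6 h (−1.65 ± 0.10, limma adjusted p = 1.11e-07), 12 h (−1.55 ± 0.10, 3.35e-07) and 24 h (−1.11 ± 0.10, 5.49e-06). The lysophosphatidic acid receptor gene Lpar1 was lower at 6 h (−1.41 ± 0.07, limma adjusted p = 2.24e-08), 12 h (−1.03 ± 0.07, 5.47e-07) and 24 h (−1.51 ± 0.07, 3.49e-08). Other receptor genes took other courses. F2rl1 was higher at 6 h (1.39 ± 0.08, limma adjusted p = 1.11e-07) and 12 h (0.80 ± 0.08, 2.04e-05) but not at 24 h (−0.03, 0.837). P2ry6 was lower at 6 h (−1.61 ± 0.07, limma adjusted p = 6.45e-09) but did not pass at 24 h (0.06, 0.531).

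Downstream, 3 of 13 Gq effector genes rose and 3 fell at 6 h, and 5 rose and 3 fell at 12 h. At 24 h 5 rose and 5 fell, where 35.8%, 26.6% and 30.0% of all genes passed at the 3 times. Prkce, a protein kinase C gene, fell most at 6 h (−1.27 ± 0.05, limma adjusted p = 6.46e-09). It was also lower at 12 h (−0.61 ± 0.05, 5.42e-06) and 24 h (−0.48 ± 0.05, 3.62e-05). Of the phospholipase C beta genes, Plcb3 rose at 6 h (0.51 ± 0.05, limma adjusted p = 4.86e-06). It was also higher at 12 h (0.36 ± 0.05, 0.000144) and 24 h (0.47 ± 0.05, 1.65e-05). Plcb4 was lower at 6 h (−0.45 ± 0.05, limma adjusted p = 2.83e-05) and 12 h (−0.49 ± 0.05, 2.41e-05) and higher at 24 h (0.62 ± 0.05, 3.68e-06). Kalrn was higher at 6 h (0.31 ± 0.06, limma adjusted p = 0.00069), 12 h (0.83 ± 0.06, 4.6e-07) and 24 h (0.63 ± 0.06, 5.08e-06).

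Cell type markers moved at the same times, at which 35.8%, 26.6% and 30.0% of all genes passed. Of 10 smooth muscle markers 4 rose and 3 fell at 6 h, 5 rose and 1 fell at 12 h, and 9 rose at 24 h with Smtn at 0.66 ± 0.04 and Lmod1 at 0.59 ± 0.04 (limma adjusted p = 3.58e-07 and 6.75e-07), when Rgs4 was high. The summed list, given as the array mean of 10 markers, ran from 12.22 to 12.24 in untreated cells and from 12.63 to 12.65 at 24 h. Of 6 pericyte markers 1 rose and 3 fell at 6 h, 1 rose and 4 fell at 12 h and 1 rose and 2 fell at 24 h, Cspg4 being about 1.0 higher each time (1.02, 0.96 and 0.98; limma adjusted p = 3.67e-09, 1.21e-08 and 1.21e-08).

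Against 17.2%, 13.3% and 14.7% of all genes called lower, 4 of 7 fibroblast markers fell at each time and none of them rose. Their array mean ran from 9.43 to 9.48 in untreated cells and from 9.03 to 9.12 after Ang II, and Pdgfra was lower by −1.39, −1.24 and −1.15 (limma adjusted p = 1.02e-08, 5.29e-08 and 1.23e-07). Of the 9 endothelial markers 1 fell at 6 h, 1 rose and 1 fell at 12 h, and 2 rose and 1 fell at 24 h. Of the 9 leukocyte markers none passed at 6 or 12 h and 1 fell at 24 h. The part of these shifts in the RGS values was not tested.

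Genes most like each of the 4 most variable RGS genes were found by Pearson correlation of log2 values over the 12 arrays, which fall into the same 4 groups. For Rgs16 they were Sh2b3 (0.995), Sipa1 (0.988) and Utp4 (0.987), and Sh2b3, an adaptor that restrains cytokine receptor signalling, had group means of 8.93, 10.08, 8.82 and 8.92. For Rgs4 they were Stard7 (0.988), Rab29 (0.986) and Vldlr (0.986), whose means were likewise lowest at 6 h and highest at 24 h. For Rgs2 they were Morc3 (0.982), Polr1b (0.980) and Rffl (0.976), all highest at 6 h. For Rgs5 the closest, Cldn20, Susd4 and Tub, reached only 0.906, 0.906 and 0.905.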

How the data were processed

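Total RNA of 12 samples (100 ng each, per the labels' protocols) was measured on Rat Gene 1.0 ST arrays from Affymetrix. Each value is a probe set's log2 signal as deposited. RMA and Partek, which the submitters' processing notes name, were the authors' tools. Their versions and any filters are not stated in the sources used here.

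The value table has 29214 rows. The platform annotation gives 1 symbol to 15310 probe sets, several to 323, and leaves 13581 unnamed here. Symbols were updated through RefSeq (GRCr8), by gene identifier for 14481 genes and by accession for 5, with 20 kept. For 527 genes with more than 1 probe set the highest mean was used, which left 14506 genes.

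limma 3.58.1 in R 4.3.3 fitted the means of the 4 groups over all 12 arrays (8 residual and 3.37 prior degrees of freedom). Comparisons were two-sided, Benjamini-Hochberg adjusted over all genes, at a threshold of 0.05. No filter on dim genes was applied. For arrays no read depth exists, and their number limits the precision. The fit was tested on simulated data. Tables used Python 3.11.15 and pandas 2.3.3, and figures matplotlib 3.10.9.

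The RGS genes and lists were chosen with earlier results of these data known. Named genes are all listed RGS genes and, from up to 2 passing genes with the largest difference per list and time, some but not all. Also named are Acta2, Gnb5, Rgs7bp, F2rl1, P2ry6, neighbours on the chromosome and the genes most like an RGS gene in pattern. Alternatives were each array left out, the replicate block, the 2 groups alone, a filter at the median level, probe set means, every probe set, array weights, centring on array medians, quantile normalization, another variance prior (trended, robust) or none, at least 1.5-fold, and an adjusted p of 0.01. One further fit, which dropped the narrowest array of each treated group, was added after seeing the data.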

Additional observations from a re-analysis of the deposited data

Results flagged for a closer look

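For 5 of the 9 RGS genes the level after 24 h of Ang II differed from that after 6 h, where 39.2% of all genes passed. The test was of that difference itself (limma, 24 h against 6 h), in which the untreated means cancel. It cannot tell Ang II from time in culture. The differences on the log2 scale were 1.86 for Rgs4, −1.33 for Rgs16, −0.56 for Rgs2, 0.28 for Rgs12 and 0.21 for Rgs19. Rgs4 went from below untreated cells at 6 h to above them at 24 h, each passing on its own. For Rgs16 and Rgs2 the rise at 6 h was gone at 24 h, for Rgs12 the fall, and for Rgs19 only the later level passed against untreated cells.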

How the results depend on the processing

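Over 25 settings, 12 of which left out 1 array, 1213 of 1326 differences of single RGS genes kept their direction and their side of the threshold, 42 lost a call and 33 gained one. The other 38 changed sign without being called in either fit, all below 0.1 in size on the log2 scale, and no called difference changed sign. With at least 1.5-fold required, the RGS genes called were 2 in place of 5 at 6 h, 0 in place of 2 at 12 h, 1 in place of 2 at 24 h, 1 in place of 4 from 12 to 24 h and 2 in place of 5 from 6 to 24 h (6.87%, 3.7%, 3.87%, 2.43% and 6.49% of all genes). At an adjusted p under 0.01 they were 1 at 12 h, 1 at 24 h and 2 from 12 to 24 h (18.2%, 19.3% and 16.4% of all genes). With the 2 groups alone, or with arrays centred on their medians, 1 was called at 24 h (27.9% and 27.6% of all genes), and without moderation 2 were called from 12 to 24 h (26.1%). Leaving out 1 array gave 4 to 5 at 6 h, 1 to 3 at 12 h and 1 to 3 at 24 h. From 6 to 12 h it gave 4 to 5 and from 12 to 24 h 3 to 5. From 6 to 24 h it gave 5 to 6, and in the F test 6 to 7. Over all genes these fits called, in that order, 31.2% to 36.5%, 21.9% to 27.3%, 24.2% to 30.1% and 22.2% to 27.9%. The last 3 tests gave 21.7% to 27.5%, 33.4% to 39.6% and 47.5% to 50.8%. The filter at the median level left out Rgs3, Rgs5, Rgs7 and Rgs14. Of 18 pairs of same-numbered replicates, 3 had deviations from the group mean correlated above 0.1 (range −0.103 to 0.299, other pairs −0.28 to 0.257). These correlations cannot tell whether same-numbered arrays share a culture or animal, which the labels do not state. With the replicate block the counts were 5 at 6 h, 2 at 12 h and 3 at 24 h (34.9%, 25.7% and 29.6% of all genes), and 4 from 6 to 12 h, 4 from 12 to 24 h and 6 from 6 to 24 h (25.7%, 26.9% and 39.2%), Rgs7 being gained at 24 h against untreated (0.23, limma adjusted p = 0.0412) and against 6 h (0.22, 0.0357). The number of arrays, 3 per group, limits what could be called.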
